A study of Mus musculus with 8 samples.

Results

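The genes described here encode cyclin-dependent kinase (CDK) inhibitors and proteins of the retinoblastoma (RB) family. They were chosen by name, and the 9 chosen were Cdkn1b, Cdkn2a, Cdkn2b, Cdkn2c, Cdkn2d, Cdkn3, Rb1, Rbl1 and Rbl2, without the related Cdkn1a and Cdkn1c. All 9 had a row among the 14853 genes of the authors' deposited table. Gene expression had been measured by total RNA sequencing of undifferentiated spermatogonia from C57BL/6 mice aged 8 to 12 weeks, sorted on day 7 after tamoxifen by tdTomato fluorescence, a high level of the surface protein MCAM and the absence of KIT. The 4 samples of the deleted group had the genotype TERTCreER/flox and the 4 control samples TERTCreER/+, written below as CreER/flox and CreER/+. All 8 also carried CreER at 1 Tert allele, the reporter Rosalsl-Tdtomato/+ and tamoxifen treatment, and the sample titles call the controls TERT-hetero. CreER is a Cre recombinase that tamoxifen activates, and here it sits at Tert, the gene of the telomerase reverse transcriptase. The sorted cells are therefore those in which this locus drove it, or descendants of such cells. Nothing in the labels says whether a sample was 1 animal or a pool, and p-values then measure only the spread between these samples, which may be technical.

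Progress from G1 into S phase is driven by cyclin D with CDK4 or CDK6, and then by cyclin E with CDK2. INK4 proteins, encoded by Cdkn2a to Cdkn2d, bind CDK4 and CDK6, whereas p27, encoded by Cdkn1b, binds cyclin-CDK complexes more broadly. The kinases phosphorylate the RB family, the pocket proteins pRB, p107 and p130, which otherwise hold E2F transcription factors in check. p107 and p130 also bind E2F4 and the MuvB proteins in the DREAM complex, which represses cell cycle genes in resting cells. In the mouse testis Rb1 is known to be needed for lasting maintenance of spermatogonial stem cells, and Cdkn2c and Cdkn2d act together in male germ cell development.

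The promoters of Cdkn2a and Rbl1 are shown because 1 row of Cdkn2a covers 2 start sites and because Rbl1 is itself a textbook E2F target. That of Cdkn3 is shown as an example with a cell cycle homology region (CHR), a motif linked to MuvB. The sequences are the 250 bases before each start site, from RefSeq on build GRCm38.p6, written 5′ to 3′ along the gene. The table of promoters held 10 windows for 8 of the 9 genes; Rb1 had no entry. Capitals mark matches to TTTNNCGC, searched here as the E2F motif with any base allowed at N, or to the CHR motif TTTGAA. Both strands were searched, in windows that also took in the 50 bases after the start.
Cdkn2a, upstream start site, chr4:89294620-89294869, minus strand: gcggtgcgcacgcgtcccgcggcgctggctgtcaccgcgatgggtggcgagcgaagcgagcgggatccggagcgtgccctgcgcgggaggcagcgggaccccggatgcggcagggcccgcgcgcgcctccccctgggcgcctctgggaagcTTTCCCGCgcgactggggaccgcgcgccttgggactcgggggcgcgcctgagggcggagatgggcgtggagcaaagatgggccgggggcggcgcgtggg
Cdkn2a, downstream start site, chr4:89282193-89282442, minus strand: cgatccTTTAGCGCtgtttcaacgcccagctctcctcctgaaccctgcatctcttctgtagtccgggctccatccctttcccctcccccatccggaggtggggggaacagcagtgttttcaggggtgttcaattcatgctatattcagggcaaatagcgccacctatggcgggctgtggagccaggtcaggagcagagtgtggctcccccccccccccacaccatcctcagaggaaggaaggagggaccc
Rbl1, chr2:157204535-157204784, minus strand: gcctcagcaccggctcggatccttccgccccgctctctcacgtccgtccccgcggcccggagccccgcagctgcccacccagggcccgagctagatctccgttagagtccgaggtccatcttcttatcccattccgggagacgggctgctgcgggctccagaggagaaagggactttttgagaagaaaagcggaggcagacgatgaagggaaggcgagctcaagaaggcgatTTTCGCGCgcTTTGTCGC
Cdkn3, chr14:46760291-46760540, plus strand: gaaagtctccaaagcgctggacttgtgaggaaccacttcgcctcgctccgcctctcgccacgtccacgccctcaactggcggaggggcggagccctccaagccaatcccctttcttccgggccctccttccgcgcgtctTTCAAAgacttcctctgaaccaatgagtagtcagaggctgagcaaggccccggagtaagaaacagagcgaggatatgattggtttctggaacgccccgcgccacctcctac
The E2F motif was found in 3 of the 10 windows, those of Rbl1 and of both Cdkn2a start sites, and in 5.17% of all 32851 windows in the RefSeq table. Rbl1 held 2 matches, TTTCGCGC and TTTGTCGC, which began 18 and 8 bases before its start. At Cdkn2a, TTTCCCGC began 99 bases before the upstream start and TTTAGCGC 244 bases before the downstream start. The CHR motif was found on the opposite strand, as TTCAAA, in the windows of Cdkn3, Cdkn2b and Rbl2, and on either strand in 17.9% of all windows. No window of these genes held both motifs, and the matches describe the letters only.

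The table gives, for each gene, a mean normalized count over all libraries and a log2 fold change between the groups with its standard error (SE). Values per library were not analysed here, so neither the spread of a level over samples nor the overlap of the groups can be stated. The mean count per kilobase of the longest annotated transcript allows levels to be set side by side, but only roughly. A gene's count can take in all its transcripts, and which of them these cells express was not determined. On this scale Cdkn2a stood highest of the 9, with 263 normalized counts per kb from a mean count of 235 in the authors' deposited table. This was above 83.3% of the genes with a known length, in cells where the gene's products, p16 and ARF, are textbook brakes on proliferation. The length used for Cdkn2a was the 895 bases of its longer transcript. Its shorter transcript has 852 bases, of which 575 are shared with the longer. Over the exons of both together, the value per kb would be lower than 263. Rb1 followed with 168 per kb (mean count 782 in the authors' deposited table), and Rbl1 with 73.4 per kb (mean count 357), close to the 67.9 of the median gene. Cdkn3, Cdkn2d and Cdkn1b lay close together at 43.5, 42.9 and 42.0 per kb, on mean counts of 84.9, 61.0 and 191 in the authors' deposited table. Cdkn2b (28.3 per kb), Cdkn2c (23.9) and Rbl2 (18.2) were the lowest, at mean counts of 39.4, 59.2 and 89.4 in the authors' deposited table. Within the RB family the order per kb was therefore Rb1, Rbl1, Rbl2, and within the INK4 genes it was Cdkn2a, Cdkn2d, Cdkn2b, Cdkn2c. Which neighbours in this order differ beyond the spread between samples could not be assessed. The order also rests on the transcript lengths chosen, as Rbl2 has 10 annotated transcripts and Cdkn1b has 3.

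**Figure D1:**
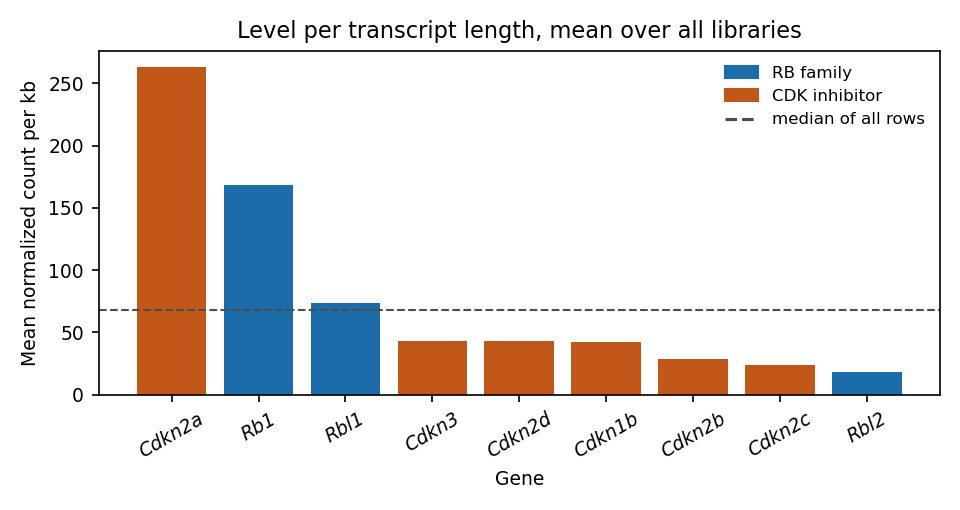
Mean normalized count per kilobase of the longest annotated transcript (vertical axis) for each gene (horizontal axis), averaged by the authors over all libraries, with no error bars because values per library were not used. Cdkn2a at 263 and Rb1 at 168 stand above the dashed line at 67.9, the median of all genes, and Rbl2 at 18.2 is the lowest.

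The count of Cdkn2a cannot be split between its products. In GENCODE M21 on GRCm38 its transcripts Cdkn2a-202, which starts upstream, and Cdkn2a-201 begin 12.5 kb apart on chromosome 4 and share 575 exonic bases, or 64.2% of the first and 67.5% of the second. The first exons differ, and the shared second exon is read in different frames to give ARF and p16. Cdkn2b lies 11.7 kb away on the same chromosome, from 89306289 to 89311032, inside the annotated span of the long non-coding RNA Gm12610. Transcripts of Cdkn2a and Cdkn2b share a run of at most 23 identical bases, the longest of any pair among the 9 genes, and the next longest was 16 bases.

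**Figure D2:**
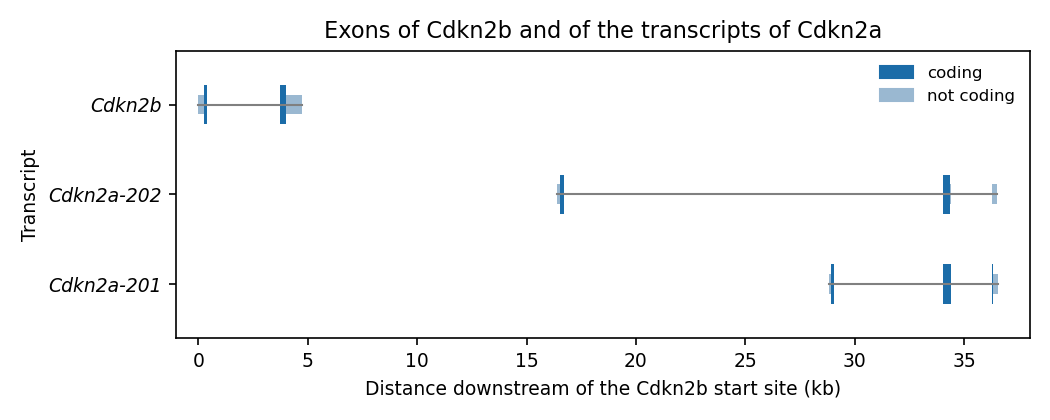
Exons (boxes, dark where coding) and introns (lines) of Cdkn2b and of both Cdkn2a transcripts, drawn to scale by distance in kilobases downstream of the Cdkn2b start site. The transcripts of Cdkn2a have separate first exons 12.5 kb apart and share their later exons.

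The comparison asks whether these brakes of the cell cycle are expressed differently once Tert has been acutely deleted. None of the 9 genes was called at an adjusted p under 0.05 by the DESeq2 Wald test in the authors' deposited table, where 5.36% of all genes were called. At an unadjusted p under 0.05 the count was likewise 0 of 9, against 19.7% of all genes. The log2 fold changes of flox over CreER/+ had a median of -0.036 beside 0.00071 over all genes. Their median size without sign was 0.077, beside 0.16 over all genes. Values were above 0 for 3 of the 9, namely Cdkn2b, Rb1 and Rbl1, and below 0 for the other 6, while 50.1% of all genes were above 0.

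Among the pocket proteins, Rb1 (Entrez gene 19645, chromosome 14, 73192858 to 73325951 in GRCm38), the retinoblastoma gene itself, had the most precise value of the 9. Its log2 fold change was 0.077 (SE 0.091, adjusted p 0.714 by DESeq2) in the authors' deposited table. The 95% interval from that SE ran from -0.10 to 0.26, or from 0.932-fold to 1.19-fold. Rbl1 (Entrez gene 19650, chromosome 2, 157145893 to 157204534), which encodes p107, stood at 0.033 (SE 0.11, adjusted p 0.917 by DESeq2) in the authors' deposited table, with an interval from 0.880-fold to 1.19-fold. Rbl2 (Entrez gene 19651, chromosome 8, 91070057 to 91123844), which encodes p130, the pocket protein most typical of resting cells, had -0.036 (SE 0.29, adjusted p 0.969 by DESeq2) in the authors' deposited table. Its interval was wide, from 0.657-fold to 1.45-fold, and its SE was 1.24 times the median of genes of like mean count.

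Of the CDK inhibitors, Cdkn2c had the value farthest from 0. This gene (Entrez gene 12580, chromosome 4, 109660876 to 109666756) encodes the INK4 protein p18. It stood at -0.45 (SE 0.29, unadjusted p 0.121, adjusted p 0.402 by DESeq2) in the authors' deposited table, a point value 1.37-fold lower in flox. The interval reached from 0.494-fold to 1.09-fold, so it held both no difference and a 2.02-fold lower level. In size the value lay above 82.4% of all genes, but at a mean count of 59.2 in the authors' deposited table a change of 1.83-fold would have been needed for a call.

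The other INK4 genes stood nearer to 0. Cdkn2a (Entrez gene 12578, chromosome 4, 89274473 to 89294619) had -0.14 (SE 0.16, adjusted p 0.695 by DESeq2) in the authors' deposited table, with an interval from 0.733-fold to 1.12-fold. Cdkn2b (Entrez gene 12579), which encodes p15, a known target of TGF-beta signalling, had 0.098 (SE 0.31, adjusted p 0.912 by DESeq2) in the authors' deposited table and an interval from 0.701-fold to 1.63-fold. Cdkn2d (Entrez gene 12581, chromosome 9, 21288459 to 21291421), which encodes the INK4 protein p19, had the value nearest to 0 of the 9. It was -0.0018 (SE 0.31, adjusted p 0.998 by DESeq2) in the authors' deposited table, but its interval still ran from 0.654-fold to 1.53-fold.

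Cdkn1b and Cdkn3 lie outside the INK4 group. Cdkn1b (Entrez gene 12576, chromosome 6, 134920401 to 134925525) had -0.074 (SE 0.17, adjusted p 0.867 by DESeq2) in the authors' deposited table, with an interval from 0.756-fold to 1.19-fold. Cdkn3 (Entrez gene 72391, chromosome 14, 46760461 to 46771530) encodes a phosphatase that acts on CDKs and is named with the inhibitors for that reason. Its value was -0.10 (SE 0.23, adjusted p 0.871 by DESeq2) in the authors' deposited table, with an interval from 0.679-fold to 1.28-fold.

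**Figure D3:**
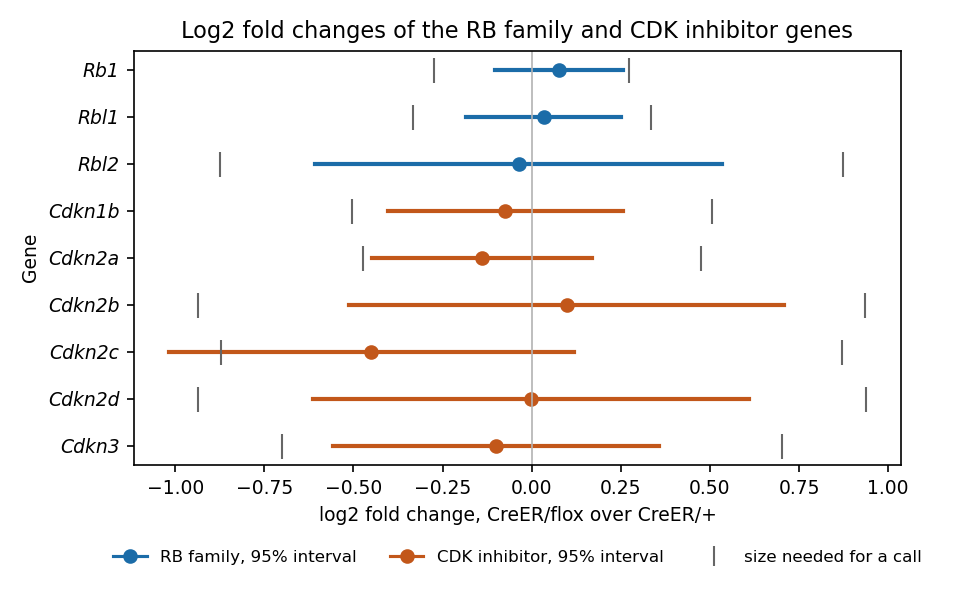
Log2 fold change of CreER/flox over CreER/+ (horizontal axis) for each gene (vertical axis), with points for the authors' values, bars for 95% intervals from the authors' SEs, and grey ticks for the size at which a value of that SE would have been called. All 9 bars cross 0, and the points run from -0.45 for Cdkn2c to 0.098 for Cdkn2b.

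How small a change could have been called depended on each gene's SE. The smallest Wald statistic among called genes was 3.00 in size in the authors' deposited table. With this statistic and its own SE, Rb1 would have been called from 1.21-fold, Rbl1 from 1.26-fold, Cdkn2a from 1.39-fold and Cdkn1b from 1.42-fold. Cdkn3 needed 1.63-fold, and the 4 genes with the largest SEs needed more, namely Cdkn2c 1.83-fold, Rbl2 1.83-fold, Cdkn2b 1.91-fold and Cdkn2d 1.92-fold. The intervals of 8 genes lay within 2-fold in either direction, that of Cdkn2c being the exception, and those of 5 lay within 1.5-fold. These intervals assume a normal Wald statistic, and the central statistics of the whole table were 1.45 times as wide. With SEs widened by that factor the intervals of 3 genes, Rb1, Rbl1 and Cdkn1b, lay within 1.5-fold, and 8 still lay within 2-fold.

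**Figure D4:**
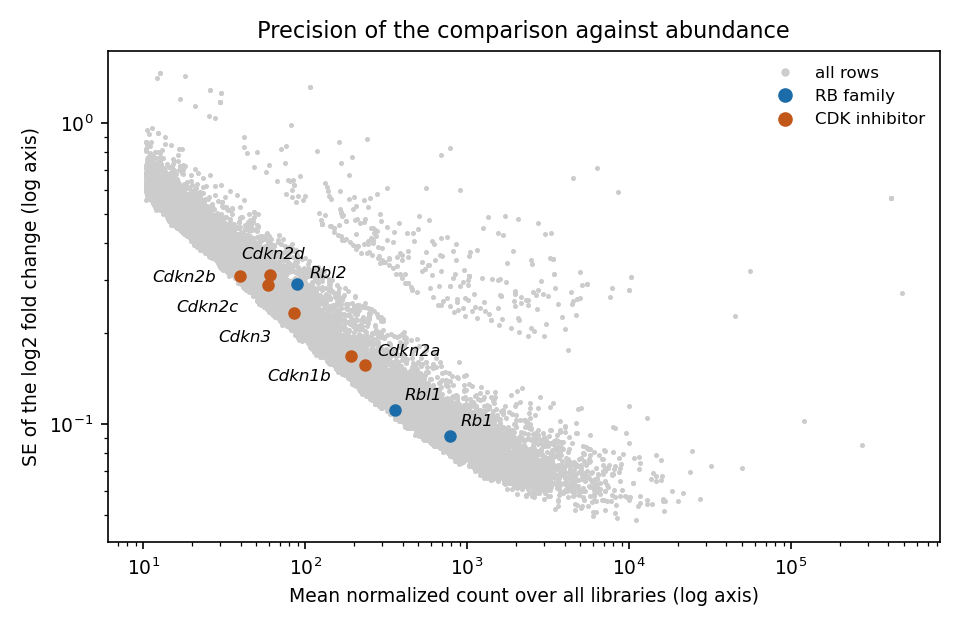
SE of the log2 fold change (vertical log axis) against mean normalized count (horizontal log axis) for all genes in grey and for the 9 genes in colour. Rb1 has the highest count and the smallest SE of the 9 (782 and 0.091), and Cdkn2b the lowest count (39.4).

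Neighbouring genes were listed because their reads could count for a member where annotations overlap. Lpar6, a receptor gene in the span of Rb1, stood at 0.0052 (SE 0.34, adjusted p 0.996 by DESeq2) in the authors' deposited table, and Aktip, which overlaps Rbl2, at 0.077 (SE 0.15, adjusted p 0.849 by DESeq2). No source used here gives the strand setting of the counting. Measured genes within 20 kb of a member, other members aside, were 2810454H06Rik, Faf1, Atg4d, Kri1, Ap1m2, Cnih1, Rcbtb2, Lpar6, Samhd1, Mroh8, Chd9 and Aktip. Of these only Samhd1 was called, beside 5.36% of all genes. A single call among so few genes is not read as a result about the neighbours. Samhd1 encodes a dNTP hydrolase and lies 10.8 kb from Rbl1. It was higher by 0.29 (SE 0.068, adjusted p 0.00325 by DESeq2) in the authors' deposited table. Mroh8, nearer to Rbl1 at 4.01 kb, stood at -0.81 (SE 0.32, adjusted p 0.123 by DESeq2) there and was not called.

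The genes on either side of these brakes in the pathway were then described by list. Among the G1 cyclins, CDKs and their activators, 3 of 17 rose and none fell in the authors' deposited table, where 1.94% of all genes were called higher and 3.42% lower. The median of this list was 0.12. The called genes in the authors' deposited table were Ccnh, the cyclin of the CDK-activating kinase (0.34, SE 0.093, adjusted p 0.0133 by DESeq2), Ccna2, the S and G2 phase cyclin A2 (0.37, SE 0.12, adjusted p 0.0346 by DESeq2), and Ccne1, cyclin E1 (0.60, SE 0.19, adjusted p 0.0425 by DESeq2). Fold changes in this table follow a trend with a gene's transcript length, its GC content and its mean count. Neither Ccnh nor Ccna2 was called once that trend was removed. Ccne1 still was, but close to the threshold (adjusted p 0.0492 by a Wald test on the remainder). The median of the list was then 0.060.

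The direct partners of the INK4 proteins, named here for that role after their values were seen, were not called. Cdk4 stood at 0.018 (SE 0.087) and Cdk6 at -0.18 (SE 0.16) in the authors' deposited table. Of the D cyclins, Ccnd1 had 0.018 (SE 0.13), Ccnd2 -0.12 (SE 0.061) and Ccnd3 -0.082 (SE 0.14) in the authors' deposited table. Ccnd2 was the most abundant gene of its list, at a mean count of 3580 in the authors' deposited table. Cdk2, the partner of cyclin E, had 0.092 (SE 0.13) in the authors' deposited table.

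Genes for the degradation of p27 gave 0 called of 10 measured by DESeq2 in the authors' deposited table, with 2 at an unadjusted p under 0.05 and a median of 0.041. Both counts are to be read beside 5.36% called and 19.7% at that unadjusted p over all genes, and the second is near its background. The 2 were Skp1, a subunit of SCF ubiquitin ligases (0.24, SE 0.081, adjusted p 0.0553 by DESeq2), and Cops5, a COP9 signalosome subunit (0.17, SE 0.085, adjusted p 0.234 by DESeq2) in the authors' deposited table. Skp1 passed with p-values adjusted over genes of mean count 100 or more. With the trend removed it stood at 0.074 (adjusted p 0.762), and the median of the list was -0.063. Skp2, the subunit that recognises p27 and is named for that role after its value was seen, stood at 0.031 (SE 0.12) in the authors' deposited table.

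Downstream of the pocket proteins, none of the 20 E2F, DP and MuvB genes was called by DESeq2 in the authors' deposited table, with 2 at an unadjusted p under 0.05, beside 5.36% and 19.7% of all genes. Their median was 0.076, and 17 of 20 were above 0, beside 50.1% of all genes. E2f6, a repressive E2F that does not bind pocket proteins, had 0.23 (SE 0.083, adjusted p 0.0708 by DESeq2) and Rbbp4, a histone-binding MuvB subunit, 0.19 (SE 0.087, adjusted p 0.190 by DESeq2) in the authors' deposited table. E2f4, the main E2F of p130 complexes and named for that role after its value was seen, stood at 0.0037 (SE 0.14) in the authors' deposited table.

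Of 30 E2F target genes, 4 rose and none fell in the authors' deposited table. Over all genes 1.94% were called higher and 3.42% lower. The median of the list was 0.19, and 29 of 30 were above 0, beside 50.1% of all genes. An unadjusted p under 0.05 was held by 15 of these and by the gene below 0, beside 19.7% of all genes in either direction. The called genes in the authors' deposited table were Ccna2 and Ccne1 again, with Rfc4, which helps to load the sliding clamp PCNA (0.34, SE 0.10, adjusted p 0.0233 by DESeq2), and Gins1, part of the helicase at the fork (0.51, SE 0.17, adjusted p 0.0404 by DESeq2). The annotation of Rfc4 overlaps that of Eif4a2, that of Ccna2 overlaps Exosc9 and that of Gins1 overlaps the pseudogene Gm20550, whose reads could count for them. The gene below 0 was Tyms, thymidylate synthase (-0.26, SE 0.10, adjusted p 0.126 by DESeq2) in the authors' deposited table. Rbl1, with its matches to the searched E2F motif, was not on this list and its value of 0.033 lay below the list's median. With the trend removed, the list's median was 0.12 and only Ccne1 was called, close to the threshold. Whether the lists differ from the 9 genes was not tested.

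The last list held regulators of Cdkn2a and partners of ARF. Of 20 measured, 1 rose and none fell in the authors' deposited table, with a median of 0.14. This share of called genes is near the 5.36% called over all genes, and the median was 0.052 with the trend removed. The called gene was Bmi1, a Polycomb gene whose product represses Cdkn2a in several tissues (0.29, SE 0.073, adjusted p 0.00643 by DESeq2) in the authors' deposited table, and it was not called once the same trend was removed. Cdkn2a itself stood at -0.14 with an SE of 0.16. All calls in these lists, and that of Samhd1, ended when the statistic was read against a t distribution with 6 degrees of freedom or against a null of the observed width. These settings called only 0 and 5 genes over the whole table, so the loss is not particular to these genes. With the trend removed Samhd1 was still called, at 0.25.

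**Figure D5:**
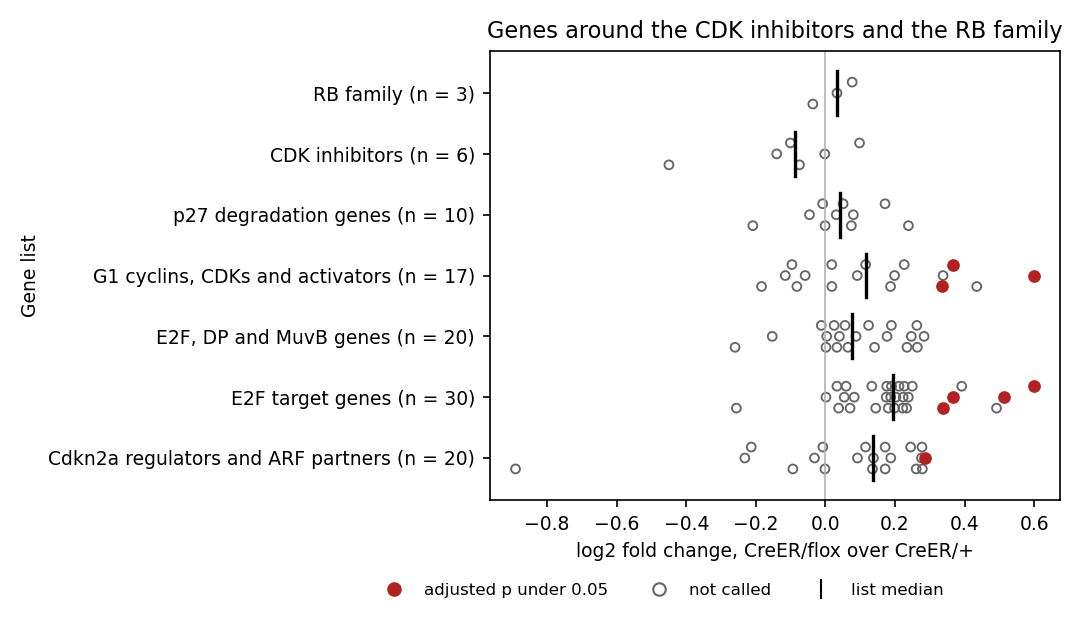
Log2 fold change of CreER/flox over CreER/+ (horizontal axis) for each gene of the named lists (vertical axis, with the number of genes), where filled points are called at an adjusted p under 0.05, open points are not, and black bars are list medians. No RB family or CDK inhibitor gene is filled, while 4 of 30 E2F target genes are; Ccna2 and Ccne1 appear in both the cyclin list and the target list.

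Facts of the whole comparison bear on these values. Tert, the targeted gene, stood at 0.29 (SE 0.26, adjusted p 0.595 by DESeq2) in the authors' deposited table, which checks neither the labels nor the sign, because no source used here says which exons Cre removes. All 12 genes listed for undifferentiated spermatogonia were measured, with mean counts from 66.1 for Nanos2 to 5143 for Zbtb16 in the authors' deposited table. Dazl was called higher, but Dazl and Ddx4 are germ cell genes that do not mark this state alone. Of the 12 genes 9 were below 0 (median -0.081), among them Zbtb16 (-0.18, SE 0.067) and Ret (-0.23, SE 0.084), neither called, in the authors' deposited table. None of the 6 markers of differentiating spermatogonia was called (median -0.014), with values from -0.91 for Dmrtb1 to 0.30 for Stra8 in the authors' deposited table. An unadjusted p under 0.05 by DESeq2 was held by 3 of them, 2 above 0 and 1 below, beside 19.7% of all genes. Of 8 spermatocyte markers Piwil1 was called lower (median -0.22) in the authors' deposited table. Of 10 spermatid markers, all were below 0 (median -1.18) and 3 were called lower (Odf1, Spem1 and Tssk1), with a summed mean count of 6366 in the authors' deposited table. Over all genes 3.42% were called lower. All 10 spermatid markers had an unadjusted p under 0.05 by DESeq2, beside 19.7% of all genes. Cdkn2c and Cdkn2d are known to be expressed in later germ cells as well, and the part of the spermatid markers in their values was not tested. Among somatic cells, 6 of 7 Sertoli markers were measured (log2 fold changes from -0.50 to 0.62, summed mean count 429), with Trf called higher, and 2 of 5 myoid markers (summed mean count 108), with Actg2 called lower, in the authors' deposited table. Trf alone had a mean count of 316, and the other measured Sertoli markers had 16.2 to 33.6, in the authors' deposited table. Endothelial (4 of 4 measured), Leydig (1 of 5), leukocyte (1 of 5) and erythroid markers (4 of 4) had summed mean counts of 265, 46.4, 13.0 and 193 in the authors' deposited table and none was called. The other markers of these lists, such as Amh, Cyp17a1, Acta2 and Ptprc, had no row among the 14853 genes, whose lowest mean count was 10.4. In such bulk samples, fewer cells of a type and less RNA per cell cannot be told apart.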

How the data were processed

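A stranded low-input kit turned DNase-treated total RNA into libraries, per the labels' protocols. DESeq2, Bowtie, Bowtie2 2.0.0-6, TopHat2 2.0.4 and Trim Galore, and the builds GRCm38 and mm10, are listed per the submitters' processing notes. For the read counter, its strand setting and its annotation, nothing is stated in the sources used here. The authors' deposited table holds a mean normalized count signal over all libraries, a log2 fold change and its SE, the Wald score, and p-values with their adjustment. The score differed from the log2 fold change over its SE by at most 2.58e-07. The name of the table sets flox against WT, so fold changes were read as CreER/flox over CreER/+. Library totals were not analysed here, so depth is given as mean counts and SEs.

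Genes were matched by Entrez ID to RefSeq on GRCm38.p6 (14828 of 14853 rows), and transcript lengths came from GENCODE M21 (92.0% of rows). No model was fitted across libraries. Calls use an adjusted p under 0.05 over all rows, as deposited. The 95% intervals are normal intervals, and the SE of genes of like mean count is the median over the 500 nearest rows. The trend was a weighted cubic fit to 13633 protein-coding rows. The members, gene lists and tests were chosen with earlier results of these data known. Named genes were every member, Tert, up to 4 called genes of each list or else the 2 of smallest p, called markers, and overlapping or neighbouring genes. Steps were tested on simulated data. Tables were handled in Python 3.11.15 with scipy 1.17.1, numpy 2.4.6 and pandas 2.3.3, and plots drawn with matplotlib 3.10.9.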

Additional observations from a re-analysis of the deposited data

How the results depend on the processing

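Under all 8 alternatives none of the 9 CDK inhibitor and RB family genes was called, with adjusted p values from 0.401 to 1.00 over those settings that covered the gene. An adjusted p under 0.01, a t distribution and a wider null could only lose calls, so these settings could not have called a member. Adjustment over genes of mean count 100 or more covered only 4 of the 9 genes. Removing the trend with a transcript's length, its GC content and the mean count reversed the sign of Rb1 (-0.016), Rbl1 (-0.023), Rbl2 (0.037) and Cdkn2d (0.074), all within their SEs of 0. Cdkn2b moved from 0.098 to 0.21 and Cdkn2c from -0.45 to -0.31 there, both with an adjusted p of 0.697 or more. Among the same 13633 protein-coding genes this setting called 390, against 701 before it, 1 G1 cyclin and CDK gene, 1 E2F target and 0 regulators of Cdkn2a. At an adjusted p under 0.01 the G1 cyclins and CDKs and the E2F targets had 0 called. With a t distribution of 6 degrees of freedom, or a null as wide as the central statistics, these lists and the regulators of Cdkn2a had 0 called, and 0 and 5 genes were called over the whole table. At an adjusted p under 0.1, 9.02% of all genes were called. The counts there were 1 of 10 (Skp1) for p27 degradation and 1 of 20 (E2f6) for E2F, DP and MuvB genes. They were 3 of 20 for regulators of Cdkn2a, 4 of 17 for G1 cyclins and CDKs and 6 of 30 for E2F targets. Adjustment over genes of mean count 100 or more gave 1 of 10 (Skp1) for p27 degradation, beside 6.47% of those genes. Centring on the median and counting identical rows once moved no list's count. No paired analysis was possible because the deposited table gives values per comparison and not per library, and leaving out each replicate was not run for the same reason. The SEs are largest for Cdkn2b, Cdkn2c, Cdkn2d and Rbl2, and that of Rbl2 is 1.24 times the median at like mean count.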
